A study of Populus euphratica with 12 samples.

Results

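The miR166 and miR390 families, which act on leaf polarity, were followed through the 4 leaf types of Populus euphratica, a desert poplar whose leaves broaden as the tree ages. Members were the listed miRNAs named ptc-miR166 or ptc-miR390, names of Populus trichocarpa sequences that the authors assigned by perfect matches to miRBase. There were 5 of them among 257 listed miRNAs: ptc-miR166a, ptc-miR166n and ptc-miR166p, and ptc-miR390a and ptc-miR390d-3p. Small RNA was sequenced from second juvenile leaves, with 3 biological replicates of each leaf type. Linear (Li) leaves were taken from trees 0 to 3 years old and lanceolate (La) leaves from trees 4 to 6 years old. Ovate (Ov) leaves were taken from trees 8 to 12 years old and broad-ovate (Bo) leaves from trees over 20 years old. All grew in 1 locality, and the labels name no treatment and no genetic change. Leaf shape and tree age cannot be told apart in this design. Whether the replicates were separate trees was not stated, so P values measure the spread between these samples.

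In plants, miR166 guides the cleavage of HD-ZIP III transcripts, which encode transcription factors of the upper (adaxial) side of the leaf, and so keeps these factors out of the lower (abaxial) side. miR390 is loaded into AGO7 and starts the processing of the non-coding TAS3 RNA into trans-acting small RNAs, which repress ARF3 and ARF4, auxin response factors of the abaxial side. These roles are best known from Arabidopsis. The targets themselves were not analysed here.

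Values are RPM, the reads of a miRNA scaled to the same total of listed miRNA reads in every library, a unit the authors call TPM. Taking the step of the values as 1 read, the 12 libraries held 199583 to 632114 such reads, and the most abundant miRNA, ptc-miR159a, took 30.8% to 40.0% of them. Every member had reads in all 12 libraries. The lowest count of any member was 56 reads (ptc-miR166p in Ov3), or 0.0156% of that library (95% Wilson interval 0.0120% to 0.0203%, which covers counting error only). In bulk leaf RNA, fewer cells that hold a miRNA and less of it per cell cannot be told apart.

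No member differed between any of the 6 pairs of leaf types after Benjamini-Hochberg adjustment in limma over 216 tested miRNAs. The miR166 family was abundant throughout, at 20.0% to 23.8% of the reads as leaf type means, and its main member ptc-miR166a had nearly the same mean in all 4 leaf types. Both miR390 members had their lowest means in La and Ov leaves and their highest in Li and Bo leaves, and the Bo mean was 2.13 times the La mean for ptc-miR390a and 1.94 times for ptc-miR390d-3p. Of 30 results (5 members in 6 pairs), 7 passed an unadjusted P of 0.05 in limma. All 7 were among the 12 results of miR390 members, and 0 were among the 18 of miR166 members. The count of 7 depended on the processing. It was 4 with RLE scaling, which sets libraries by the median ratio of their miRNAs, and 3 without a variance trend. It was 3 without Ov2, 4 without Ov3 and 4 without La2, and from 5 to 8 without each of the other libraries. In all of these fits 0 of the miR166 results passed. Whether the families differed from each other in this respect was not tested.

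These counts can be read against all 216 tested miRNAs. In La/Li both miR390 members passed the unadjusted threshold as lower in La, against 6.48% of all tested, and both had every La value below every Li value, against 7.41%. Ov/Li had 1 member past it as lower in Ov, against 9.72%, and the same member did not overlap, against 12.5%. Bo/La had 2 members past it as higher in Bo, against 6.02%, and 1 that did not overlap, against 9.26%. Bo/Ov also had 2, against 8.33%, and 1 that did not overlap, against 11.6%. In Bo/Li 0 members passed the unadjusted threshold, against 22.2% in either direction, and 0 were free of overlap, against 31.5%. Ov/La had 0 past it, against 1.85%, and 0 free of overlap, against 7.41%. With adjusted P values there were 0 of 5 members in each pair, against a share of all tested that was 1.85% (La/Li), 4.17% (Ov/Li) and 12.5% (Bo/Li) when set against Li, 0% between Ov and La, 3.70% between Bo and La and 2.78% between Bo and Ov. La/Li and Ov/Li share the Li libraries, and Bo/La and Bo/Ov share the Bo libraries.

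**Figure D1:**
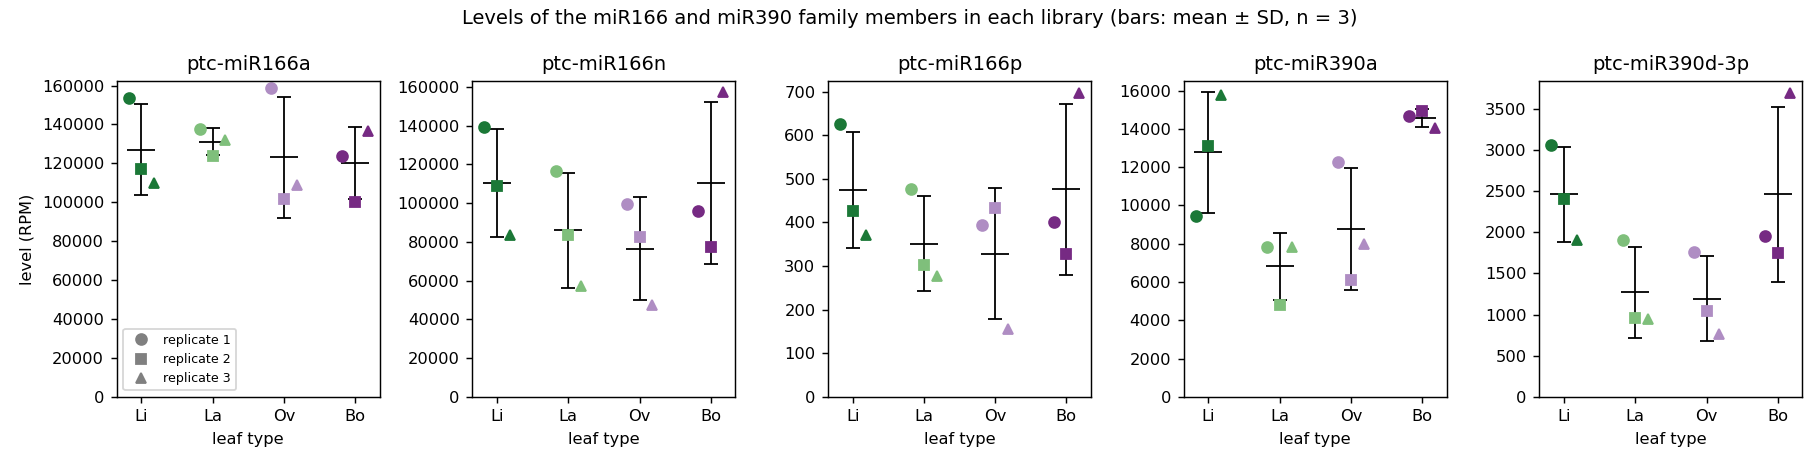
Level in RPM (y axis, from 0) of the 5 members in Li, La, Ov and Bo leaves (x axis), with a symbol for each library and the mean ± SD (n = 3) as bars. The 3 Bo values of ptc-miR390a lie between 14022 and 14944 RPM, above every La and Ov value, whereas the values of ptc-miR166a overlap between all leaf types.

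The miR166 family was dominated by a pair of sequences. Over the 12 libraries ptc-miR166a averaged 125376 RPM (rank 2 of 257) and ptc-miR166n 95741 RPM (rank 3), while ptc-miR166p averaged 407 RPM (rank 65). How reads that match several members of a family were counted was not stated, so the division between members is uncertain.

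For ptc-miR166a the Li libraries held 153607, 116973 and 110096 RPM, the La libraries 137635, 123916 and 132048 RPM, the Ov libraries 158992, 101923 and 108649 RPM and the Bo libraries 123943, 100092 and 136643 RPM. Every leaf type overlapped with every other. The highest library, Ov1, came from the same leaf type as the second lowest, Ov2. Li leaves averaged 126892 ± 23390 RPM, La leaves 131200 ± 6899, Ov leaves 123188 ± 31189 and Bo leaves 120226 ± 18557 (SD, n = 3 each). The highest of the 12 values was 1.59 times the lowest.

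The fitted log2 fold changes of ptc-miR166a lay between -0.14 (Bo/La) and 0.06 (La/Li), each with a standard error of 0.22. For Bo/Li the value was -0.07, a 0.95-fold change with a 95% interval of 0.681-fold to 1.32-fold (adjusted p = 0.87 in limma). Changes within this interval remain compatible with these values, which come from 3 libraries a group. The sign for La/Li turned to -0.013 with RLE scaling.

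ptc-miR166n was more variable. Its level was 139149, 108633 and 83311 RPM in the Li libraries, 116661, 83537 and 57428 RPM in those of La, 99738, 82527 and 47279 RPM in those of Ov and 95795, 77392 and 157440 RPM in those of Bo. The highest value (Bo3) was 3.33 times the lowest (Ov3), and the leaf types overlapped in every pair. Li leaves averaged 110364 ± 27960 RPM, La leaves 85875 ± 29686, Ov leaves 76515 ± 26742 and Bo leaves 110209 ± 41926 (SD, n = 3 each).

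The largest fitted difference of ptc-miR166n was Ov/Li, at -0.56 on the log2 scale (standard error 0.35, adjusted p = 0.37 in limma), and 1 of the 9 pairings of an Ov with a Li library had the higher value in Ov. Without Ov3 this was -0.25. Next came Bo/Ov at 0.53 (95% interval -0.23 to 1.29, adjusted p = 0.52 in limma), which was 0.21 without Ov3 and 0.24 without Bo3. Neither passed the unadjusted threshold.

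The rare member, ptc-miR166p, had the same highest and lowest libraries. The Li libraries held 625, 426 and 371 RPM, the La libraries 475, 302 and 276 RPM, the Ov libraries 394, 433 and 156 RPM and the Bo libraries 401, 329 and 697 RPM. Bo3 was 4.46 times as high as Ov3, and all leaf types overlapped. None of its 6 comparisons passed the unadjusted threshold. The fitted value farthest from 0 was Ov/Li at -0.63, with a 95% interval of -1.67 to 0.42 (adjusted p = 0.47 in limma), and without Ov3 it was -0.16.

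Added together, the 3 miR166 members took from 15.6% (Ov3) to 29.5% (Bo3) of the reads. The sum averaged 237730 ± 50822 RPM for Li, 217426 ± 33571 for La, 200030 ± 53164 for Ov and 230911 ± 59223 for Bo leaves (SD, n = 3 each). The most distant means, those of Ov and Li, differed by less than the SD of either. Family sums are given as values with no test.

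ptc-miR390a, the more abundant miR390 sequence, was at 9461, 13123 and 15753 RPM in the Li libraries, at 7841, 4791 and 7813 RPM in those of La, at 12287, 6079 and 7960 RPM in those of Ov and at 14676, 14944 and 14022 RPM in those of Bo. Every Bo value was above every La and Ov value, and every La value was below every Li value. Ov1 was higher than Li1, so Ov and Li overlapped. The Bo libraries were close together, with a coefficient of variation of 3.26%, whereas that of the other leaf types was 24.7% (Li), 25.7% (La) and 36.3% (Ov).

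Mean ptc-miR390a levels were 12779 ± 3160 RPM (Li), 6815 ± 1753 RPM (La), 8775 ± 3184 RPM (Ov) and 14547 ± 474 RPM (Bo; SD, n = 3 each). In descending order these are Bo, Li, Ov and La, and no neighbours in that order passed even the unadjusted threshold. The largest contrast was Bo/La, at 1.13 on the log2 scale (standard error 0.32, 95% interval 0.45 to 1.81). Its unadjusted p was 0.0033 and its adjusted p = 0.065 in limma, and all 9 pairings were higher in Bo. Without the library Ov1, which belongs to neither leaf type but enters the shared estimate of the spread, the adjusted p of Bo/La was 0.038 in limma. Over all alternatives it lay between 0.038 and 0.28.

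For Bo/Ov the fitted difference of ptc-miR390a was 0.79 log2 units (95% interval 0.11 to 1.47, unadjusted p = 0.026, adjusted p = 0.29 in limma), with 9 of 9 pairings higher in Bo. La/Li was at -0.91 (95% interval -1.59 to -0.23, unadjusted p = 0.013, adjusted p = 0.19 in limma), with 0 of 9 pairings higher in La. Ov/Li was at -0.57 (95% interval -1.26 to 0.11). Bo/Li was at 0.22 (95% interval -0.47 to 0.90, adjusted p = 0.75 in limma) and at -0.044 with RLE scaling, so no direction can be given for this pair.

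**Figure D2:**
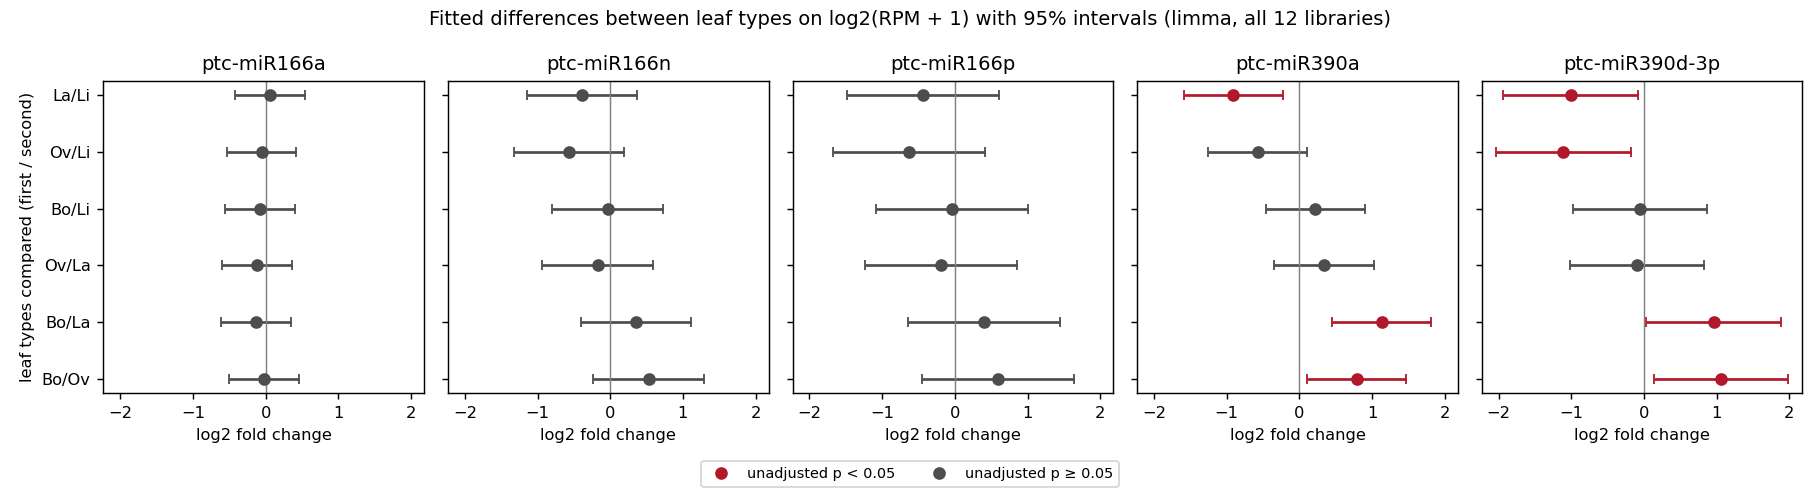
Fitted log2 fold changes (x axis) of the 5 members for the 6 pairs of leaf types (y axis, first over second) with 95% intervals, from limma on log2(RPM + 1) with all 12 libraries. Red points passed the unadjusted P of 0.05, all 7 of them for ptc-miR390a or ptc-miR390d-3p, and 0 passed after adjustment.

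ptc-miR390d-3p comes from the 3p arm of its precursor, opposite the 5p arm that supplies the miR390 loaded into AGO7. The Li libraries held 3066, 2411 and 1909 RPM of it, the La libraries 1902, 959 and 945 RPM, the Ov libraries 1766, 1042 and 765 RPM and the Bo libraries 1954, 1753 and 3689 RPM. Every La and Ov value was below every Li value, although La1 (1902 RPM) was just under Li3 (1909 RPM). Bo2 was below La1 and Ov1, so Bo overlapped with both. Mean levels were 2462 ± 580 RPM (Li), 1269 ± 548 RPM (La), 1191 ± 517 RPM (Ov) and 2466 ± 1064 RPM (Bo; SD, n = 3 each).

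On the log2 scale ptc-miR390d-3p was at -1.01 for La/Li (95% interval -1.93 to -0.09, adjusted p = 0.29 in limma) and at -1.11 for Ov/Li (95% interval -2.03 to -0.18, adjusted p = 0.14 in limma). Bo/La was at 0.96 (95% interval 0.03 to 1.88, adjusted p = 0.37 in limma) and Bo/Ov at 1.06 (95% interval 0.13 to 1.98, adjusted p = 0.29 in limma), each with 8 of 9 pairings higher in Bo. These 4 passed the unadjusted threshold alone. Bo/Li was at -0.05 (95% interval -0.98 to 0.87) and Ov/La at -0.10 (95% interval -1.02 to 0.83).

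In a single test of any difference among the 4 leaf types, the moderated F was 5.34 for ptc-miR390a (unadjusted p = 0.012, adjusted p = 0.11 in limma) and 3.88 for ptc-miR390d-3p (unadjusted p = 0.034, adjusted p = 0.18 in limma). The miR166 members had F values from 0.15 to 1.21. Thus 2 of 5 members passed the unadjusted threshold, against 23.1% of all tested miRNAs, and 0 the adjusted one, against 5.09%. With RLE scaling 1 member passed the unadjusted threshold, and without a variance trend 0 did. A straight trend from Li to Bo had slopes between -0.03 and 0.10 log2 units per leaf type. It passed neither threshold for any of the 5 members, against 21.3% of all tested miRNAs unadjusted and 12.0% adjusted.

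The sum of the miR390 members averaged 15241 ± 2580 RPM for Li, 8084 ± 2080 for La, 9966 ± 3629 for Ov and 17013 ± 606 for Bo leaves (SD, n = 3 each). It ranged from 0.575% of the reads in La2 to 1.77% in Bo3. With RLE scaling the Bo mean was 15264 RPM and the Li mean 16285 RPM, so the order of these leaf types depended on the scaling. The ratio of the miR166 sum to the miR390 sum does not depend on it. This ratio averaged 16.3 ± 6.41 for Li, 28.0 ± 7.41 for La, 20.8 ± 4.51 for Ov and 13.5 ± 3.01 for Bo leaves (SD, n = 3 each). It was 21.7 or more in the La libraries and 16.6 or less in the Bo libraries, with Li1 (23.4) and Ov2 (26.0) among the La values.

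The highest and lowest libraries were shared by 3 members. ptc-miR166n, ptc-miR166p and ptc-miR390d-3p were each highest in Bo3, then in Li1, and each lowest in Ov3, then in La3. Relative to its own median over the 12 libraries, ptc-miR166n stood at 0.82 log2 units in Bo3 and -0.92 in Ov3, ptc-miR166p at 0.81 and -1.34, and ptc-miR390d-3p at 1.01 and -1.26. ptc-miR166a deviated less in the same libraries, at 0.14 in Bo3 and -0.19 in Ov3. ptc-miR390a stood at -0.19 in Li1, where the other 4 members were above their medians.

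**Figure D3:**
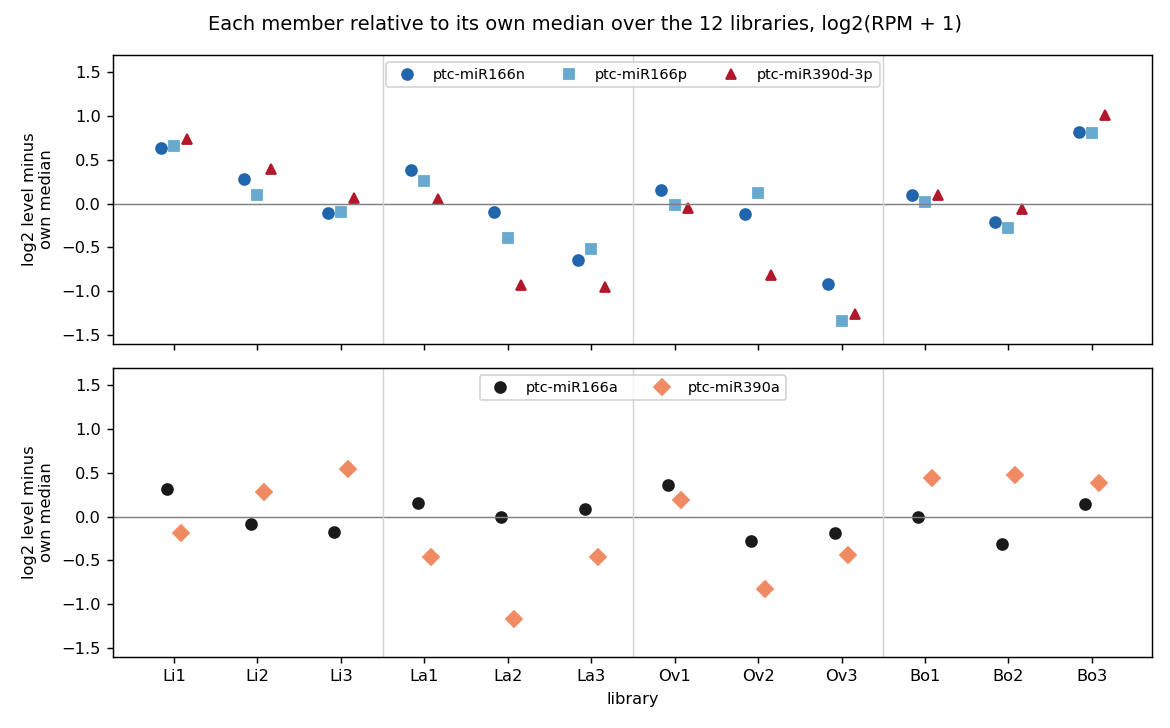
Log2 level of each member minus its own median over the 12 libraries (y axis), by library (x axis). In the upper panel ptc-miR166n, ptc-miR166p and ptc-miR390d-3p are all high in Li1 and Bo3 and low in La3 and Ov3, and in the lower panel ptc-miR166a stays between -0.31 and 0.36 while ptc-miR390a is lowest in La2, at -1.17.

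Over the 12 libraries ptc-miR166n and ptc-miR166p correlated with a Pearson r of 0.95 and a Spearman rho of 0.86 on the log2 scale (permutation p = 1e-05 for r, the smallest that 100000 permutations can give, and p = 0.00068 for rho). Adjusted over the 10 pairs of members these were 0.0001 and 0.0036. ptc-miR166n and ptc-miR390d-3p, which belong to different families, gave r = 0.90 and rho = 0.86 (permutation p = 6e-05 and p = 0.00072, adjusted 0.0003 and 0.0036). ptc-miR166p and ptc-miR390d-3p gave r = 0.85 and rho = 0.82 (permutation p = 0.00012 and p = 0.0019, adjusted 0.0004 and 0.0064). Without Ov3 and Bo3, the 2 libraries farthest from the median of the first member, the 3 values of r were 0.90, 0.80 and 0.74. After subtraction of the leaf type means they were 0.93, 0.93 and 0.86, so the relation was present within leaf types. The permutations shuffled all 12 libraries freely, without regard to leaf type. Same-numbered La and Ov libraries deviated together, so the libraries were not fully independent. The permutation P values of all pairs of members may therefore be too small.

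The other pairs were weaker over the 12 libraries. ptc-miR390a and ptc-miR390d-3p gave r = 0.66 and rho = 0.56 (permutation p = 0.02 and p = 0.064, adjusted 0.049 and 0.13), with r = 0.52 without La2 and Ov2 and r = 0.23 after subtraction of the leaf type means. ptc-miR166a and ptc-miR166n gave r = 0.54 and rho = 0.69 (permutation p = 0.071 and p = 0.017, adjusted 0.14 and 0.043), with r = 0.46 without Li1 and Ov1 and r = 0.67 after the same subtraction. For ptc-miR166a and ptc-miR390a r was 0.01 and rho -0.13 (permutation p = 0.99 and p = 0.7). ptc-miR166a gave r = 0.46 with ptc-miR166p and 0.42 with ptc-miR390d-3p, and 0.57 and 0.77 after the same subtraction. ptc-miR390a gave r = 0.31 with ptc-miR166n and 0.29 with ptc-miR166p, and -0.08 and -0.10 after the same subtraction. All levels are shares of a common library total, which these correlations have in common.

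Ratios between members are free of that total. Per 100 reads of ptc-miR166a there were 90.6, 92.9 and 75.7 reads of ptc-miR166n in the Li libraries, 84.8, 67.4 and 43.5 in those of La, 62.7, 81.0 and 43.5 in those of Ov and 77.3, 77.3 and 115 in those of Bo. Bo3 was the single library in which ptc-miR166n exceeded ptc-miR166a. Reads of ptc-miR166p per 100 reads of ptc-miR166n stayed between 0.331 and 0.525 in all 12 libraries, at 0.423 ± 0.052 (SD, n = 12). The uncertain division of reads between members applies to these ratios and to the correlation of ptc-miR166p with ptc-miR166n.

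Per 100 reads of ptc-miR390a there were 32.4, 18.4 and 12.1 reads of ptc-miR390d-3p in the Li libraries, 24.3, 20.0 and 12.1 in those of La, 14.4, 17.1 and 9.61 in those of Ov and 13.3, 11.7 and 26.3 in those of Bo. Leaf types overlapped throughout, and Li1 and Bo3 had the highest ratios. The lowest mean was 13.7 ± 3.81 for Ov and the highest 20.96 ± 10.4 for Li (SD, n = 3 each).

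**Figure D4:**
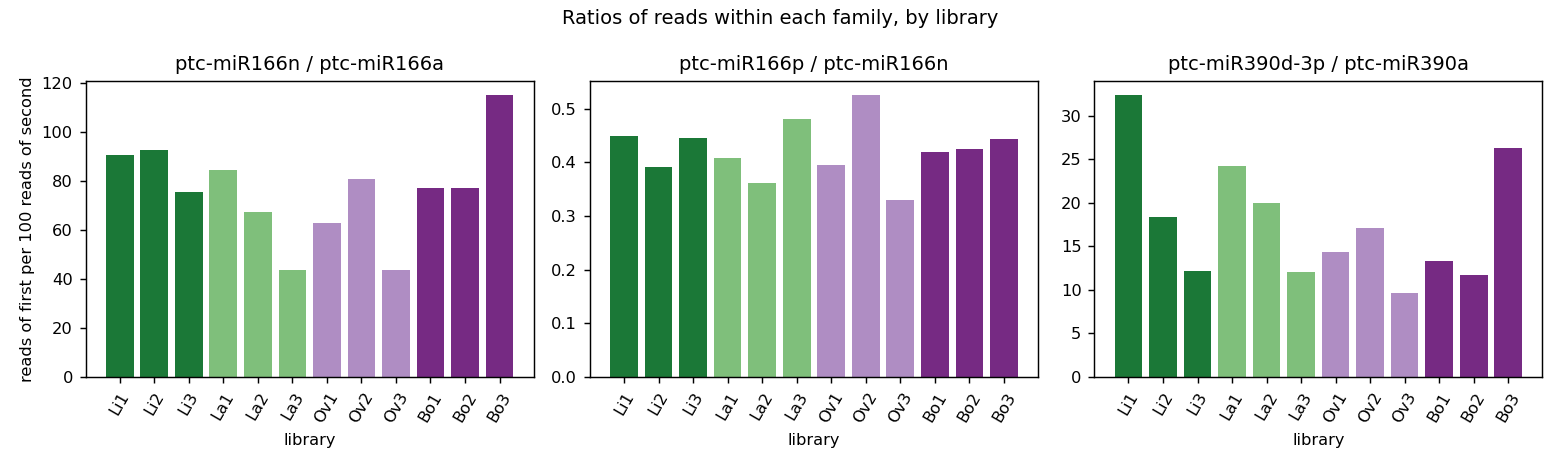
Reads of the first member per 100 reads of the second (y axis, from 0) in each of the 12 libraries (x axis), for ptc-miR166n over ptc-miR166a, ptc-miR166p over ptc-miR166n and ptc-miR390d-3p over ptc-miR390a, coloured by leaf type. The first ratio runs from 43.5 to 115, the second from 0.331 to 0.525 and the third from 9.61 to 32.4.

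Same-numbered La and Ov libraries deviated together over all tested miRNAs. Within these pairs the Ov library held 0.855, 0.988 and 0.823 times the ptc-miR166n of the La library. For ptc-miR390a the Ov library held 1.57, 1.27 and 1.02 times as much. The ratios of each other member went both ways. They were 1.16, 0.82 and 0.82 for ptc-miR166a, 0.83, 1.43 and 0.57 for ptc-miR166p and 0.93, 1.09 and 0.81 for ptc-miR390d-3p. No member passed for Ov/La with or without the replicate number in the fit. That replicate term was common to all leaf types, so a pairing of La and Ov libraries alone was not fitted. Without it the limma fit took the libraries as independent, so this dependence may also affect the limma P values and the shares called.

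The miRNAs whose course was most like that of each family sum were looked for among 159 others with a mean of 10 RPM or more, by the Pearson correlation of log2 values over the 12 libraries. No test is given, since they were picked as the highest of 159. Most like the miR166 sum were ptc-miR394a-3p (r = 0.87, mean 14.3 RPM, thus few reads) and the predicted miRNAs NW_011499853.1_4330 (r = 0.65) and NW_011499965.1_16822 (r = 0.63). Most like the miR390 sum were ptc-miR399f (r = 0.86), NW_011500139.1_25653 (r = 0.71) and ptc-miR169a (r = 0.71, mean 10.2 RPM, also few reads). After subtraction of the leaf type means r was 0.63 for ptc-miR399f and 0.28 for ptc-miR169a. ptc-miR399f, of a family known for its part in phosphate supply, averaged 1288 RPM for Li, 311 for La, 437 for Ov and 890 RPM for Bo leaves.

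Other families that act on leaf shape or auxin response factors were compared between Bo and Li leaves in the same fit. Of 38 listed miRNAs of the families miR156, miR159, miR160, miR164, miR167, miR172, miR319, miR394 and miR396, 35 were tested. After adjustment in limma 4 rose in Bo relative to Li, against 7.41% of all tested, and 2 fell, against 5.09%. The median log2 fold change of the 35 was -0.01, and that of all tested miRNAs was 0.09. With RLE scaling 0 of them rose and 2 fell, so the calls of higher members depended on the scaling.

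The 2 that fell were ptc-miR156a and ptc-miR156g, of the family that represses SPL genes and keeps plants in the juvenile phase. ptc-miR156a was at 195, 174 and 116 RPM in Bo leaves, against 2451, 4468 and 4547 RPM in Li leaves (log2 fold change -4.53, adjusted p = 5.7e-06 in limma). ptc-miR156g was at 60.1, 63.2 and 110 RPM in Bo leaves, against 807, 1293 and 959 RPM in Li leaves (log2 fold change -3.72, adjusted p = 3e-05 in limma).

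ptc-miR160e-5p, of a family that acts on auxin response factors other than those of the TAS3 route, was at 1007, 1618 and 2885 RPM in Bo leaves, against 591, 540 and 554 RPM in Li leaves. Its log2 fold change was 1.58 with adjusted p = 0.033 in limma, and 1.31 with adjusted p = 0.075 under RLE scaling. Of the 11 miR160 and miR167 sequences, all tested, 3 rose in Bo relative to Li as deposited, against 7.41% of all tested, and 0 fell, against 5.09%. With RLE scaling 0 rose. The others of the 3, named after their values were seen, were ptc-miR160e-3p and ptc-miR160a. All 3 are thus miR160 sequences, and ptc-miR160e-5p and ptc-miR160e-3p are named as arms of the same precursor. The 11 belong to the longer list above, so these 3 are counted there too. The median of the 11 was 0.99 as deposited, against 0.09 for all tested miRNAs, and 0.73 with RLE scaling, against -0.13. ptc-miR394a-5p, which acts on an F-box gene, was at 12942, 14650 and 19099 RPM in Bo leaves, against 7769, 6339 and 5767 RPM in Li leaves (log2 fold change 1.22, adjusted p = 0.028 in limma, and 0.11 under RLE scaling).

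Among 5 sequences of miR162, miR168 and miR403, which act on DCL1 and ARGONAUTE genes of the small RNA machinery, 1 rose in Bo relative to Li, against 7.41% of all tested, and 0 fell, against 5.09%. The 1 that rose was ptc-miR162a, at 28089, 37540 and 27134 RPM in Bo leaves, against 10366, 8995 and 15705 RPM in Li leaves (log2 fold change 1.43, adjusted p = 0.034 in limma, and 0.11 under RLE scaling). The median of the 5 was -0.07.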

How the data were processed

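The authors matched small RNA reads to miRBase without mismatches, predicted further miRNAs with miRDeep2 and deposited RPM values (named TPM by them) of the same 257 miRNAs for each of the 12 samples. Trimming of reads and the treatment of reads with several matches: not given in the sources used here. All values of a sample were whole multiples (within 0.001) of 1 step, which was taken as 1 read for depth and 95% Wilson intervals. Each sample had 76 to 93 low values, under the 100 set as the minimum for this inference, so read counts and intervals rest on that assumption and no count model was run.

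Leaf types were compared in limma 3.58.1 (R 4.3.3) on log2(RPM + 1), letting the variance depend on the level, in one fit of all samples. It held 216 miRNAs that averaged 1 RPM or more. P values were 2-sided and adjusted by Benjamini-Hochberg over these miRNAs, with a threshold of 0.05. Correlations had 100000 2-sided permutations (Python 3.11.15, scipy 1.17.1, numpy 2.4.6, pandas 2.3.3), and plots were drawn with matplotlib 3.10.9. The fit was first tested on simulated data with changes larger than any fitted for the members. That test does not show how often differences as small as those of the members would be called. Chi-square per degree of freedom between any 2 libraries was 42.4 or more, so none was a copy of another. Same-numbered La and Ov samples deviated together (correlations of 0.25, 0.52 and 0.50), a pairing read from the values and not from the labels. In no other pair of leaf types were all 3 correlations over 0.1. All members were named, with the 3 miRNAs most like each family sum and up to 4 of each other list past the adjusted threshold for Bo/Li. The members and lists were chosen with earlier results of these data known. Alternatives covered scaling, pseudocount, filter, variance trend, replicate block, the samples of each pair alone and leaving out each sample.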

Additional observations from a re-analysis of the deposited data

How the results depend on the processing

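The count of members past the adjusted threshold was 0 under every alternative except the fit without Ov replicate 1, where 1 member (ptc-miR390a) passed for Bo/La. Leaving out each sample in turn thus gave 0 to 1. With unadjusted P values the counts were 2 (La/Li), 1 (Ov/Li), 2 (Bo/La), 2 (Bo/Ov) and 2 in the test of any difference. With RLE scaling Bo/La had 1, Bo/Ov 0 and the test of any difference 1. Without a variance trend La/Li had 1, Bo/La 1, Bo/Ov 0 and the test of any difference 0. The replicate block, a term common to all leaf types, left the count past the adjusted threshold at 0 in all 6 pairs and changed no call. RLE scaling moved the median over all tested miRNAs to -0.13 log2 units for Bo/Li, against 0.09 as deposited, and to -0.16 for Bo/Ov, against 0.01. It reversed ptc-miR166a for La/Li (-0.013) and ptc-miR390a for Bo/Li (-0.044), and put the miR390 sum of Bo leaves at 15264 RPM.

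Differences near 0 also changed sign when a sample was left out. For ptc-miR166a the log2 fold change ran from -0.032 to 0.21 (La/Li), -0.25 to 0.090 (Ov/Li), -0.17 to 0.071 (Bo/Li), -0.32 to 0.0039 (Ov/La) and -0.14 to 0.18 (Bo/Ov). For Bo/Li it ran from -0.33 to 0.19 for ptc-miR166n, -0.35 to 0.19 for ptc-miR166p and -0.38 to 0.15 for ptc-miR390d-3p. For Ov/La the same 3 members ran from -0.44 to 0.14, -0.46 to 0.28 and -0.43 to 0.23. Slopes per leaf type ran from -0.064 to 0.0096 for ptc-miR166a, -0.12 to 0.038 for ptc-miR166n, -0.12 to 0.039 for ptc-miR166p and -0.13 to 0.036 for ptc-miR390d-3p. A group left with 2 samples was assumed to vary like the others.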
